A study of Rattus norvegicus with 6 samples.

Results

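Desmin and 9 genes of the smooth muscle contractile apparatus were followed in rat bone marrow mesenchymal stem cells (BMSCs) with and without overexpression of FNDC5. The 10 genes were Des, Acta2, Tagln, Cnn1, Myl9, Tpm1, Tpm2, Actg2, Myh11 and Cald1, and they were found by gene name among the 33508 genes of the count table. All 10 had a row and at least 1 count, and 8 of them were among the 12104 genes with enough counts to be tested. Cnn1 and Actg2 were too low and were not tested.

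RNA-seq had been run on 3 libraries of BMSCs-OE-FNDC5, made from cells transduced with lentivirus carrying rat FNDC5, and 3 libraries of BMSCs-OE-NC, made from cells that received the blank lentivirus. By the study's methods, the cells of both groups were flushed from the femurs and tibias of male Sprague-Dawley rats aged 2 months, were passaged 3 times and were transduced at a multiplicity of infection of 10, with polybrene (6 μg/ml at first, then diluted) and the virus medium replaced the next day, over 72 h in all. The vectors carried a GFP or luciferase tag, and the promoter that drives the insert was not given in the sources used here. Both groups then underwent hypoxia and serum deprivation (H/SD), that is 1% O2, 94% N2 and 5% CO2 in medium without glucose or serum, for 24 h, so that the comparison is of FNDC5 overexpression within H/SD and holds no normoxic cells. The labels call the libraries biological replicates without saying if each had its own rats, culture or transduction, so p-values measure only the spread between these libraries, which may be technical. One label names retinas as the extracted tissue, whereas the other labels give bone marrow.

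In a smooth muscle cell, force comes from myosin II sliding along actin filaments, and the filaments are dressed with tropomyosin, calponin, caldesmon and transgelin. Phosphorylation of the regulatory light chain switches the myosin on. Desmin forms intermediate filaments that tie dense bodies and the membrane together, a role that vimentin fills in most mesenchymal cells. Many of these genes are transcribed through the CArG box, the DNA element bound by serum response factor with its coactivators myocardin and the MRTFs. Cultured BMSCs and fibroblasts transcribe several of them, and more strongly when they become myofibroblasts.

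To show where members of the set do and do not carry this element, the promoters of 7 of the 10 genes were taken from RefSeq (build GRCr8), with 8 windows in all because Cald1 has a pair of starts. Tagln, Myl9 and Myh11 had no entry. The 250 bases before each start were searched on both strands for a CArG box with up to 1 mismatch, a pattern that reads alike on both strands. Acta2 and Tpm1 each had 2 matches, Cald1 had 1 in one of its windows, and Des, Tpm2, Cnn1 and Actg2 had 0. Of 33469 promoters searched in the same way, 18.7% held a match with up to 1 mismatch and 1.5% an exact one, and none of the members' matches was exact. The sequences below end at the last base before the transcription start and are written 5′ to 3′ on the strand of the gene, with the CArG matches in capitals. Acta2 (chr1:241172504-241172643, minus strand) and Tpm1 (chr8:76543416-76543615, minus strand) are shown because both hold 2 matches and their transcripts moved in opposite directions, and Des (chr9:84299486-84299625, plus strand) because its transcript had the largest rise of the 8 tested genes with no match in this window.
Acta2: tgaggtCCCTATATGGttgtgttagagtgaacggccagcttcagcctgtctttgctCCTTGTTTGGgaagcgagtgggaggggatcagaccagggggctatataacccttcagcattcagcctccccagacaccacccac
Tpm1: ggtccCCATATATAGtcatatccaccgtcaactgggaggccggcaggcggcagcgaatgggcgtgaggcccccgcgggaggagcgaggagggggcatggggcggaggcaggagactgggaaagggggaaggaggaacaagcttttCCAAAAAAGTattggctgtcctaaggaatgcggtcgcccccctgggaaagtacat
Des: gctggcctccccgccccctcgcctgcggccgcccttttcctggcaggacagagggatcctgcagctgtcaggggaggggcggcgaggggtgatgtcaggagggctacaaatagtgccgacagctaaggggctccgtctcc
The Acta2 matches lay at -134 to -125 and -84 to -75 from the start, and those of Tpm1 at -195 to -186 and -55 to -46. A match is a description of letters, not evidence of binding, and the absence of one covers only these 250 bases.

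The BMSCs-OE-NC libraries held 17430287 to 17965722 counts in total, and the BMSCs-OE-FNDC5 libraries 16640635 to 17229490. Levels are given in CPM (counts relative to the library's total, itself scaled by TMM, a trimmed mean of log ratios), with TMM factors of 1.13 to 1.14 for the BMSCs-OE-NC libraries and 0.877 to 0.882 for the others. A positive log2 fold change means a higher level in BMSCs-OE-FNDC5. Fndc5 itself matched the labels in every library, since the BMSCs-OE-NC libraries had 17 to 25 counts of it and the BMSCs-OE-FNDC5 libraries 64195 to 65589. Of 12 BMSC markers all were tested, and their summed level was 5421 to 5970 CPM in BMSCs-OE-NC and 4671 to 5071 CPM in BMSCs-OE-FNDC5. Col1a1 alone averaged 2835 and 2232 CPM of this, and the single markers, given below, moved both ways. The leukocyte marker Ptprc (CD45) had 0 counts in every library. Another blood cell marker, Cd14, was present, at a mean of 98.5 CPM in BMSCs-OE-NC and 197 CPM in BMSCs-OE-FNDC5. The groups differed in a large part of the transcriptome. Of all genes tested, 36.9% were higher and 38.8% were lower at an adjusted p under 0.05 in edgeR's quasi-likelihood test, 75.7% in all. A log2 fold change beyond 1 was also passed by 27.4% of the genes tested (9.84% higher and 17.5% lower). The groups did not overlap in 78.3% of genes, 37.9% with BMSCs-OE-FNDC5 higher and 40.4% with it lower.

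Of the 10 genes, 5 were higher in BMSCs-OE-FNDC5 (Des, Acta2, Tagln, Myl9 and Tpm2), 2 were lower (Tpm1 and Cald1), 1 did not pass the test (Myh11) and 2 were not tested (Cnn1 and Actg2). These counts stand beside 36.9% of all genes higher and 38.8% lower. With the fold threshold, 3 were higher (Des, Acta2 and Tagln) and 1 was lower (Cald1), beside 9.84% and 17.5% of all genes. The groups did not overlap in the 5 that were higher and the 2 that were lower, beside 37.9% and 40.4% of all genes. The 8 tested genes had a median log2 fold change of 0.80, and all genes tested one of -0.04. The contractile set therefore did not move one way. Together the 10 genes held 0.314% ± 0.00481 of all counts (SD, n = 3) in BMSCs-OE-NC and 0.451% ± 0.00364 (SD, n = 3) in BMSCs-OE-FNDC5. Des alone held 0.127% of all counts in BMSCs-OE-NC and 0.322% in BMSCs-OE-FNDC5, a larger rise than that of the sum. The summed share of the genes other than Des was therefore lower in BMSCs-OE-FNDC5. Among them Tpm1 went from 0.0696% to 0.0279% and Cald1 from 0.0588% to 0.0153%, while Tagln went from 0.0230% to 0.0386% and Tpm2 from 0.0342% to 0.0446%.

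Des (ENSRNOG00000019810, chr9:82556573-82564294 on the plus strand of the table's own unnamed build) encodes desmin, the muscle intermediate filament protein. It had 22847, 22230 and 22019 counts in the BMSCs-OE-NC libraries and 55876, 52954 and 55455 counts in the BMSCs-OE-FNDC5 libraries. Every BMSCs-OE-FNDC5 library was far above every BMSCs-OE-NC library, and the libraries of a group lay close together. The mean level was 1114 ± 7.45 CPM in BMSCs-OE-NC and 3660 ± 43.7 CPM in BMSCs-OE-FNDC5 (SD, n = 3 each). This was a log2 fold change of 1.72 ± 0.018 (standard error), or 3.29-fold, with an adjusted p of 2.0e-13 in edgeR. Desmin was an abundant transcript in both groups. Per length, in FPKM (fragments per kilobase of gene, scaled by a constant for each library), it ranked 191st of the tested genes in BMSCs-OE-NC and 92nd in BMSCs-OE-FNDC5, and its log2 fold change was the 255th highest of all tested. Des made up 42.8% ± 0.477 (SD, n = 3) of the summed FPKM of the 10 genes in BMSCs-OE-NC and 66.2% ± 0.437 (SD, n = 3) in BMSCs-OE-FNDC5. In bulk RNA, a change in the number of cells that transcribe a gene and a change in its RNA per cell cannot be told apart.

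**Figure D1:**
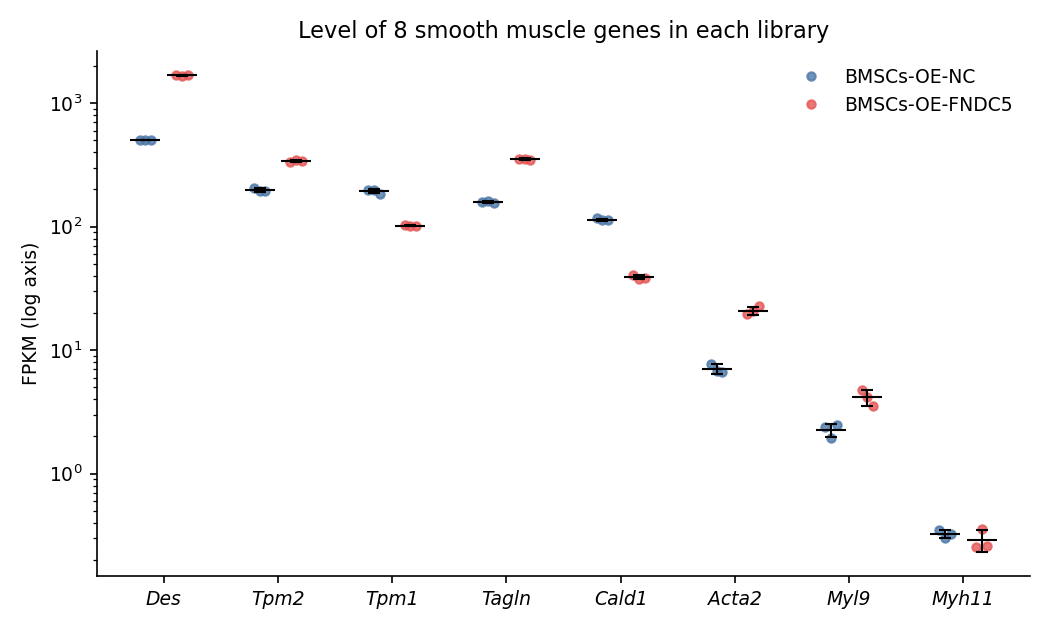
FPKM (log axis) of the 8 tested genes in each library, with BMSCs-OE-NC in blue and BMSCs-OE-FNDC5 in red, and black lines for the mean ± SD of 3 libraries. Des rises from a mean of 503 to 1683 FPKM and stays the highest, Tpm1 falls from 193 to 102 and Cald1 from 114 to 39.1, and the groups overlap only in Myh11.

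Acta2 (ENSRNOG00000058039, chr1:252537615-252550394, minus strand) encodes alpha smooth muscle actin, the most used marker of smooth muscle and myofibroblasts. The BMSCs-OE-NC libraries had 223, 192 and 187 counts of it and the BMSCs-OE-FNDC5 libraries 410, 421 and 474. The groups did not overlap, although the level was low in both. It went from 9.99 ± 0.838 to 29.1 ± 2.16 CPM (SD, n = 3 each), or by 1.54 ± 0.099 (standard error) in log2 fold change (adjusted p = 7.5e-08 in edgeR). Its rise was 2.91-fold, beside 3.29-fold for Des, at a level per length that was far lower, 7.06 FPKM against 503 FPKM in BMSCs-OE-NC. Acta2 ranked 6273rd by FPKM among the tested genes in BMSCs-OE-NC and 3714th in BMSCs-OE-FNDC5.

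Tagln (ENSRNOG00000017628, chr8:50222896-50231357, minus strand) encodes transgelin, also called SM22, which binds and bundles actin filaments. Its counts were 4135, 4087 and 3956 in BMSCs-OE-NC and 6684, 6531 and 6507 in BMSCs-OE-FNDC5. All BMSCs-OE-FNDC5 libraries were higher, and the spread within each group was narrow. The mean went from 202 ± 2.09 to 439.5 ± 7.52 CPM (SD, n = 3 each), or by 1.12 ± 0.027 (standard error) in log2 fold change (adjusted p = 2.9e-11 in edgeR).

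Myl9 (ENSRNOG00000020246, chr3:152857592-152863960, plus strand) encodes the smooth muscle regulatory light chain of myosin II. It was scarce, with 54, 44 and 55 counts in BMSCs-OE-NC and 79, 67 and 59 in BMSCs-OE-FNDC5. The groups stood apart by a small margin, and the lowest BMSCs-OE-FNDC5 library was only just above the highest BMSCs-OE-NC library in counts. After scaling it stood at 2.54 ± 0.308 and 4.57 ± 0.658 CPM (SD, n = 3 each), or 0.84 ± 0.19 (standard error) in log2 fold change (adjusted p = 0.0020 in edgeR).

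The muscle tropomyosin genes moved apart. Tropomyosin lies along the actin filament and governs which proteins reach it. Tpm2 (ENSRNOG00000016731, chr5:59016622-59025631, minus strand) had 6385, 5891 and 5848 counts in BMSCs-OE-NC and 7541, 7543 and 7675 in BMSCs-OE-FNDC5, the latter all higher. Its mean went from 301 ± 11.1 to 507 ± 7.90 CPM (SD, n = 3 each), or by 0.75 ± 0.031 (standard error) in log2 fold change (adjusted p = 2.1e-09 in edgeR). Tpm1 (ENSRNOG00000018184, chr8:72814740-72842228, minus strand) had 12798, 12468 and 11628 counts in BMSCs-OE-NC and 4896, 4646 and 4724 in BMSCs-OE-FNDC5, the latter all lower. Its mean went from 612.5 ± 22.1 to 318 ± 5.52 CPM (SD, n = 3 each), or by -0.95 ± 0.031 (standard error) in log2 fold change (adjusted p = 3.2e-10 in edgeR).

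Cald1 (ENSRNOG00000010233, chr4:62220736-62291489, plus strand) encodes caldesmon, an actin-binding protein that restrains myosin in smooth muscle and also has a non-muscle form. It had 10769, 10279 and 10138 counts in BMSCs-OE-NC and 2761, 2455 and 2608 counts in BMSCs-OE-FNDC5. The groups were far apart, with every BMSCs-OE-FNDC5 library low. The level went from 518 ± 9.73 to 174 ± 7.70 CPM (SD, n = 3 each), or by -1.57 ± 0.035 (standard error) in log2 fold change (adjusted p = 1.6e-11 in edgeR), or 2.97-fold lower. Gene counts do not separate the smooth muscle and non-muscle transcripts of Cald1, Tpm1 or Tpm2.

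Myh11, Cnn1 and Actg2, which mark mature smooth muscle most closely, were all near the limit of detection. Myh11 (ENSRNOG00000057880, chr10:764421-859184, plus strand) encodes the smooth muscle myosin heavy chain and had 48, 41 and 44 counts in BMSCs-OE-NC and 26, 35 and 26 in BMSCs-OE-FNDC5. Scaled to 2.21 ± 0.158 and 1.94 ± 0.385 CPM (SD, n = 3 each), the groups overlapped, with a log2 fold change of -0.19 and a standard error of 0.23 (adjusted p = 0.48 in edgeR). Leaving out BMSCs-OE-FNDC5 replicate 2 took it to -0.35, and leaving out BMSCs-OE-FNDC5 replicate 1 or 3 to -0.10, none of which passed. A difference of this size could not be detected at this depth.

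Cnn1 (ENSRNOG00000027736, chr8:23113048-23121761, plus strand) encodes calponin 1, which inhibits the myosin ATPase of smooth muscle. It had 0, 1 and 0 counts in BMSCs-OE-NC and 9, 16 and 8 in BMSCs-OE-FNDC5. Every BMSCs-OE-FNDC5 library was thus above every BMSCs-OE-NC library, at no more than 1.09 CPM. The totals of 1 and 33 counts gave a ratio of 44.3 after scaling (exact 95% counting interval 7.41 to 1801, which covers counting error only). Without the filter on low counts, where 26.9% of the 16786 genes with a count were higher and 28.6% lower, the adjusted p of Cnn1 was 2.0e-04 in edgeR. In DESeq2, which called 30.3% of its genes higher and 29.6% lower, it was 2.9e-04. Actg2 (ENSRNOG00000029401, chr4:115215060-115239723, minus strand), the gamma actin of visceral smooth muscle, had 0, 0 and 1 counts in BMSCs-OE-NC and 0, 4 and 0 in BMSCs-OE-FNDC5. The groups overlapped, and the ratio of the scaled totals was 5.37 (exact 95% counting interval 0.531 to 264).

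Compared per length, the order of the levels changed between the groups. In BMSCs-OE-NC it ran from Des (503 FPKM) through Tpm2 (198.5), Tpm1 (193), Tagln (158.5), Cald1 (114), Acta2 (7.06), Myl9 (2.26) and Myh11 (0.324) to Actg2 and Cnn1, of which Tpm2 and Tpm1, and Actg2 and Cnn1, did not differ beyond their spread. In BMSCs-OE-FNDC5 it ran from Des (1683 FPKM) through Tagln (351), Tpm2 (341), Tpm1 (102), Cald1 (39.1), Acta2 (20.9), Myl9 (4.14), Cnn1 (0.493) and Myh11 (0.291) to Actg2, of which Tagln and Tpm2, and Cnn1 and Myh11, overlapped. Tagln lay below Tpm1 in BMSCs-OE-NC and above it in BMSCs-OE-FNDC5. Acta2, the gene most often used to call a cell smooth muscle-like, stayed below Cald1 in both groups.

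The direction of change ran with gene length within the set. The 5 genes that rose were 1104 to 2176 bases long in the table, and the 2 that fell, Tpm1 and Cald1, were 3116 and 4465 bases long, beside a median of 2262 bases over all genes tested. Myh11, at 6693 bases, did not pass. When each library's trend of counts with gene length was removed, which left 38.2% of all genes higher and 33.5% lower, Des kept its log2 fold change at 1.74 and Acta2 had 1.26, Tagln 0.79, Tpm2 0.50, Tpm1 -0.66 and Cald1 -1.03, and all 6 still passed. In that fit Myl9 no longer passed (0.45, adjusted p = 0.054 in edgeR) and Myh11 passed as higher (0.64, adjusted p = 0.030 in edgeR), whereas scaled by library size only Myh11 passed as lower (-0.55, adjusted p = 0.047 in edgeR).

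Under 3 other scalings the 7 genes called kept their direction, and the sizes moved. Library size only moved the median of all genes by -0.37 on the log2 scale and the share of all genes higher from 36.9% to 22%, with 55.4% lower. On that scale Des had a log2 fold change of 1.35, Acta2 1.17, Tagln 0.75, Myl9 0.48, Tpm2 0.38, Tpm1 -1.32 and Cald1 -1.94. Each still passed the adjusted p in edgeR, but Tagln fell under the fold threshold and Tpm1 passed it. Upper-quartile scaling moved the median of all genes by -0.10, and Tpm1 passed the fold threshold there too, at -1.05.

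**Figure D2:**
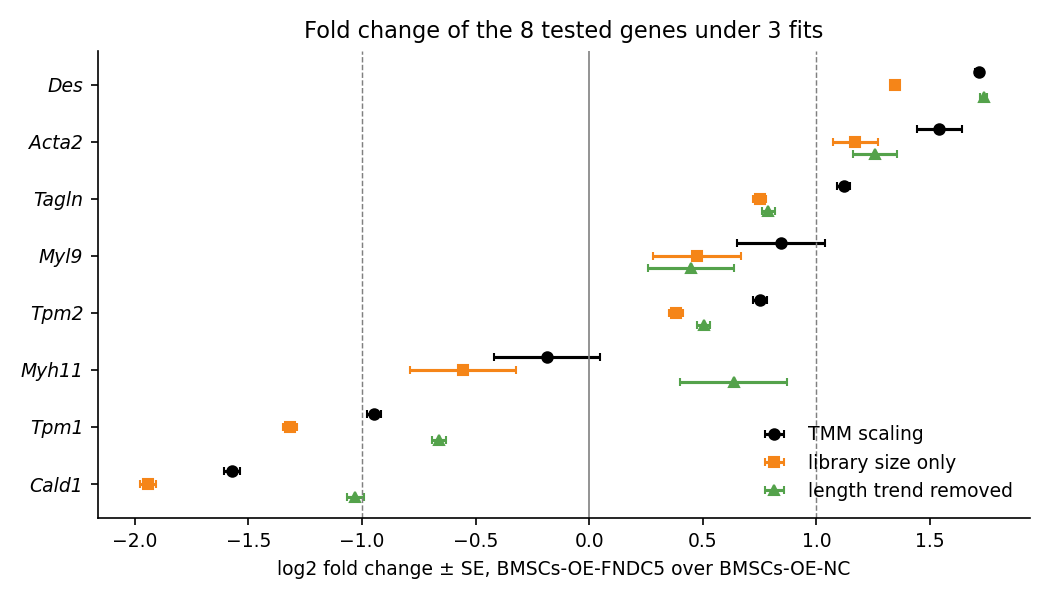
Log2 fold change ± standard error of the 8 tested genes (positive where BMSCs-OE-FNDC5 is higher) with TMM scaling (black), with library size only (orange) and with the trend with gene length removed (green); dashed lines mark a log2 fold change of 1 either way. Des lies between 1.35 and 1.74 in the 3 fits, Cald1 between -1.94 and -1.03, and Myh11 crosses 0.

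To set each muscle gene against its closest non-muscle relative, log2 ratios of FPKM were taken within each library, where scaling between libraries cancels but a trend with gene length does not. Of 10 pairs, 7 could be computed, because Actg2, Cnn1 and Myh9 had a library at 0. With 3 libraries against 3, an exact permutation test (two-sided) cannot go below p = 0.1, which is 0.12 when adjusted over the 7 pairs, so no pair could pass 0.05.

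Des was 28.8% ± 0.418 of the FPKM of Vim, which encodes vimentin, in BMSCs-OE-NC and 49.4% ± 0.834 in BMSCs-OE-FNDC5 (SD, n = 3 each). The log2 ratio was -1.82, -1.78 and -1.79 in the BMSCs-OE-NC libraries and -0.99, -1.04 and -1.02 in the BMSCs-OE-FNDC5 libraries, a difference of 0.78 with no overlap (exact permutation p = 0.1). Vimentin itself was higher, with 92846 to 96072 counts in BMSCs-OE-FNDC5 against 65013 to 68808 (log2 fold change 0.94), so that desmin rose by more than an intermediate filament gene that rose too.

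Acta2 was 0.204% of the FPKM of Actb, cytoplasmic beta actin, in BMSCs-OE-NC and 0.633% in BMSCs-OE-FNDC5, and the log2 ratio differed by 1.63 with no overlap (exact permutation p = 0.1). Actb had a log2 fold change of -0.09, and of -0.46 with library size only. Tagln was 10.1% and 13.6% of Tagln2, its widely expressed relative, a difference of 0.43 in the log2 ratio with no overlap (exact permutation p = 0.1). The ratio of Myl9 to Myl12a, a non-muscle regulatory light chain, overlapped between the groups, with a difference of 0.30 (exact permutation p = 0.3). This difference was 0.20 without BMSCs-OE-NC replicate 2 or BMSCs-OE-FNDC5 replicate 1 and 0.085 with a pseudocount of 1 FPKM. It was 0.37 without BMSCs-OE-NC replicate 3, 0.42 without BMSCs-OE-FNDC5 replicate 3 and 0.35 with the length trend removed.

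Of the 7 pairs, Tpm1 and Tpm2 had the largest mean difference as measured (-1.70), but with the length trend removed (-1.16) it was smaller than those of Acta2 and Actb (1.63) and of Tpm2 and Tpm4 (1.45). Tpm1 and Tpm2 were level in BMSCs-OE-NC, with log2 ratios of Tpm1 to Tpm2 of -0.06, 0.02 and -0.07, and in BMSCs-OE-FNDC5 the ratios were -1.69, -1.76 and -1.76. The groups did not overlap (exact permutation p = 0.1), and Tpm1 went from 97.4% to 30.0% of Tpm2. Against Tpm4, a non-muscle tropomyosin that was itself lower (log2 fold change -0.52), Tpm2 went from 31.9% to 77.3% and Tpm1 went from 31.1% to 23.2%, again with no overlap in either pair (exact permutation p = 0.1 each). The direction for Tpm1 and Tpm4 depended on gene length, since their log2 ratio differed by -0.42 as measured and by 0.28 with the length trend removed, an alternative chosen after the data were seen.

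As a description added after the values were seen, each muscle gene was also expressed as a share of its family's summed FPKM. Of the 4 tropomyosin genes, Tpm2 went from 17.8% ± 0.773 to 34.0% ± 0.638 (SD, n = 3 each) and Tpm3 from 8.83% to 11.9%, while Tpm4 went from 56.0% to 44.0% and Tpm1 from 17.4% to 10.2%. The summed FPKM of the family was 1113 in BMSCs-OE-NC and 1003 in BMSCs-OE-FNDC5. Des took 22.4% of desmin and vimentin together in BMSCs-OE-NC and 33.1% in BMSCs-OE-FNDC5. In the other families the muscle form remained a minor part: Acta2 held 0.140% and 0.406% of the actins, Tagln 9.16% and 12.0% of the transgelins, Myl9 0.236% and 0.30% of the regulatory light chains, and Cnn1 0.00233% and 0.0971% of the calponins. Among myosin heavy chains, reads of Myh9 (0 to 54 counts) and the similarly named Myh9l1 (1303 to 3208 counts) varied widely within groups and may be divided between copies, so the share of Myh11 is uncertain.

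**Figure D3:**
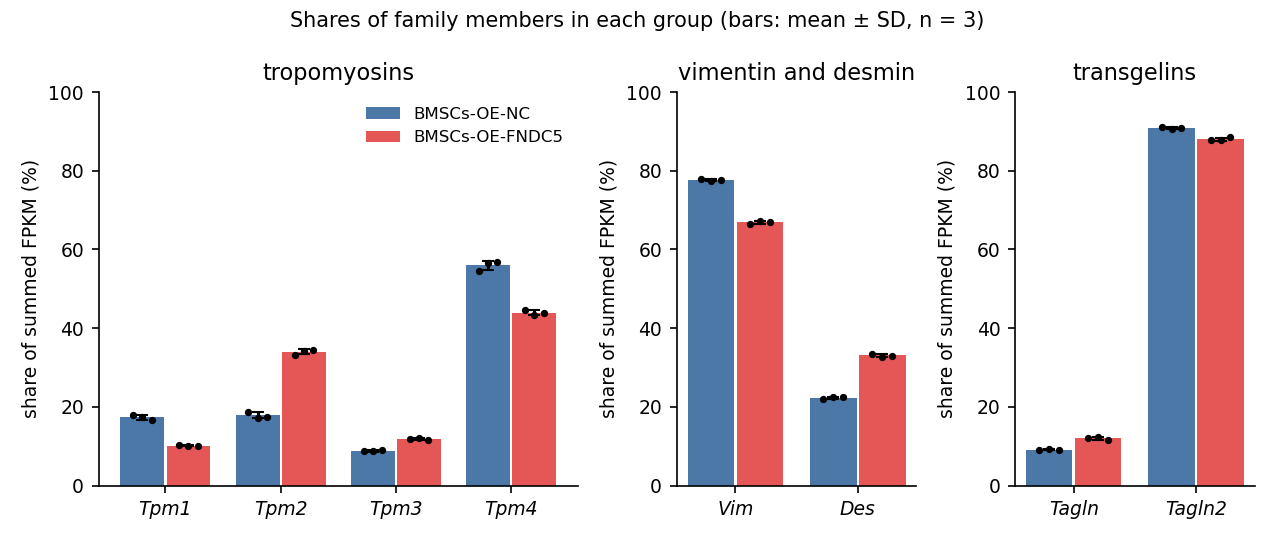
Share of the family's summed FPKM (percent) held by each gene, as bars for the mean, error bars for the SD and points for the 3 libraries, with BMSCs-OE-NC in blue and BMSCs-OE-FNDC5 in red. Tpm2 goes from 17.8% to 34.0% of the tropomyosins and Des from 22.4% to 33.1% of desmin plus vimentin, while Tagln stays a small part of the transgelins, at 9.16% and 12.0%.

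The partners of these genes were read from lists of the machinery around them. Counts in every list stand beside 36.9% of all genes higher and 38.8% lower with TMM. Those shares are 22% and 55.4% with library size only, and 38.2% and 33.5% with the length trend removed. A split near these shares says nothing particular about a list. Of the 13 non-muscle isoforms, all tested, 8 were higher, 4 were lower and 1 did not pass (median log2 fold change 0.22), but with library size only 4 were higher and 8 lower, and with the length trend removed 5 were higher and 7 lower. Vim (0.94), Tagln2 (0.69), the essential light chain Myl6 (0.84) and Myl12a (0.54) were among the higher. Actg1, cytoplasmic gamma actin, was higher with TMM (0.22) but lower with library size only (-0.15) and with the length trend removed (-0.17), so its direction depends on the scaling.

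Of 19 genes that control contraction, 17 were tested, and 8 were higher and 9 were lower (median -0.33). Among the lower were Ppp1cb, the catalytic subunit of myosin phosphatase (-1.58), Rock2, a kinase that inhibits that phosphatase (-1.44), Arhgef12, a guanine nucleotide exchange factor (-1.63), and Cdc42bpa, a myosin-regulating kinase (-1.76). With the length trend removed the falls were smaller, at -1.34 for Ppp1cb, -0.55 for Rock2, -0.97 for Arhgef12 and -0.97 for Cdc42bpa. Chosen after their values were seen, Mylk, the kinase that phosphorylates the regulatory light chain, had 75, 62 and 94 counts in BMSCs-OE-NC and 13, 12 and 9 in BMSCs-OE-FNDC5 (log2 fold change -2.33, or -1.40 with the length trend removed), and Ppp1r14a, the phosphatase inhibitor CPI-17, had 214, 183 and 189 against 516, 532 and 495 (1.82). The groups did not overlap in either gene.

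Of 16 genes of the SRF and MRTF axis, 15 were tested, with 7 higher, 5 lower and 3 not passing (median 0.07), or 3 higher and 8 lower with library size only. Csrp1 (0.81) and Csrp2 (2.43), LIM proteins of the cytoskeleton and nucleus, and Klf4 (1.01), a factor known to repress contractile genes, were higher. Fhl2, a LIM cofactor, was higher with TMM (0.35) but stood at -0.02 with library size only and at -0.06 with the length trend removed. Srf itself had 3956, 4123 and 3997 counts against 3276, 3026 and 3121, which after scaling was a log2 fold change of 0.07 that did not pass (adjusted p = 0.097 in edgeR), and it stood at -0.30 with library size only and at 0.54 with the length trend removed. Myocd, the cardiac and smooth muscle coactivator, was scarce at 67, 76 and 104 counts against 20, 22 and 19, and lower (-1.59, adjusted p = 1.0e-04 in edgeR). Srf and Myocd were picked out after their values were seen.

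Of 23 genes of actin adhesion and bundling, 22 were tested, 12 higher and 10 lower (median 0.11), or 6 and 15 with library size only. Pfn1, profilin (0.93), Tgfb1i1, a focal adhesion protein (0.96), Zyx, zyxin (0.58), and Ilk, integrin-linked kinase (0.57), were among the higher. Of 18 partners of desmin and intermediate filaments, 16 were tested, 7 higher, 4 lower and 5 not passing (median 0.16), or 6 higher and 8 lower with library size only and 12 higher and 1 lower with the length trend removed, where 38.2% of all genes were higher and 33.5% lower. Lmna, lamin A/C (1.06), and the small heat shock proteins Hspb8 (1.14) and Hspb1 (1.14), with their co-chaperone Bag3 (0.66), were higher. Cryab, the alpha B-crystallin that binds desmin, went from 19, 25 and 20 counts to 38, 42 and 48 (1.42) and was named after its values were seen. The 4 lower partners, also named after their values were seen, were Dst (-1.24), Utrn (-0.71), Sgcb (-0.48) and Sgce (-0.43). With the length trend removed Dst stood at 0.19, Utrn at 0.45, Sgcb at -0.05 and Sgce at -0.60. Nebl and Dmd had 0 counts in every library.

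Of 20 later or more restricted smooth muscle genes, 10 were tested, with 6 higher, 3 lower and 1 not passing (median 0.74), or 5 and 4 with library size only and 7 and 1 with the length trend removed. Over all genes, 36.9% were higher and 38.8% lower with TMM. Hspb7, a small heat shock protein of muscle, had 2085, 2028 and 1948 counts in BMSCs-OE-NC and 7952, 7619 and 7847 in BMSCs-OE-FNDC5 (log2 fold change 2.37), a rise past that of Des with no overlap. Hspb6 (1.48), Pgm5, a dystrophin-associated protein (1.56), and Lmod1, the leiomodin that nucleates actin in smooth muscle (1.74), were also higher. Itga8, an integrin of smooth muscle and stromal cells, went the other way, from 111, 113 and 120 counts to 3, 4 and 4 (-4.50), and was named after its values were seen. Ldb3, Kcnmb1 and Dtna had 0 counts in every library.

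**Figure D4:**
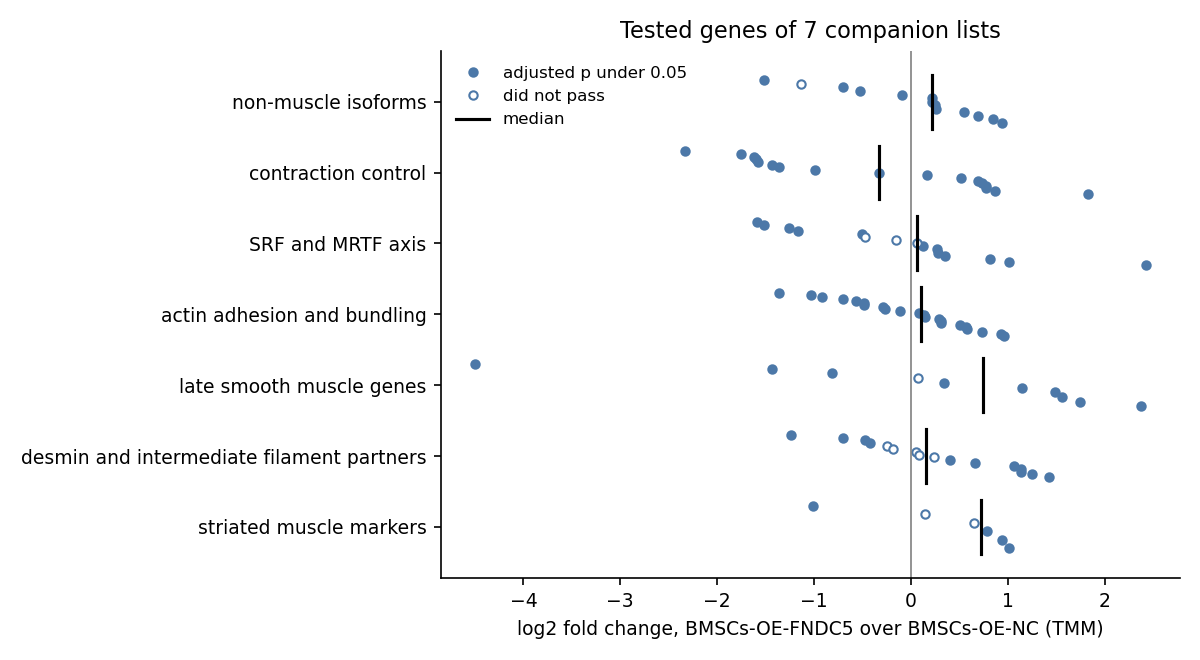
Log2 fold change (TMM scaling) of each tested gene in 7 lists, with filled circles for an adjusted p under 0.05 in edgeR, open circles for genes that did not pass, and a black line at the list's median. Each list spreads to both sides of 0, and the medians run from -0.33 for contraction control to 0.74 for the late smooth muscle genes.

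Some markers of striated muscle, pericytes, BMSCs and blood cells moved too, and the part of such cells in the changes of the contractile genes was not tested. Counts in these lists stand beside 36.9% of all genes higher and 38.8% lower with TMM. Of 33 striated muscle markers, 6 were tested, with 3 higher (Myod1 1.01, Casq1 0.79 and Tnnc1 0.94), 1 lower (Tnnt3 -1.01, named after its values were seen) and 2 not passing. Another 14 had 0 counts in every library, among them Myog, Myf5, Pax7 and Acta1. The summed level of the list was 31.6 to 36.6 CPM in BMSCs-OE-NC and 58.8 to 61.4 CPM in BMSCs-OE-FNDC5. Most of it was Myod1, from a mean of 17.6 to 35.6 CPM, and Casq1, from 10.6 to 18.4 CPM. Tnnc1 no longer passed with library size only (0.57, adjusted p = 0.14 in edgeR) or in DESeq2 (adjusted p = 0.057). With the length trend removed it did not pass either (0.43, adjusted p = 0.28 in edgeR). Desmin is shared by skeletal, cardiac and smooth muscle, so it does not tell these apart.

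Of 12 pericyte markers, 6 were tested, with 2 higher and 4 lower (median -1.10), and Rgs5, Kcnj8, Abcc9 and Rgs4 had 0 counts in every library. Pdgfrb, the receptor that marks pericytes and stromal cells (-1.62), Anpep (-1.21), Angpt1 (-2.81) and Mcam (-0.99, not passing with the length trend removed) were lower, while Cspg4 (NG2), from 102 to 256 CPM (1.33), and Ndufa4l2 (2.88) were higher. The summed level went from a range of 1884 to 1930 CPM to one of 884.6 to 905.6 CPM, in which Pdgfrb alone went from 1332 to 435 CPM. Of the 12 BMSC markers, 3 were higher, 7 were lower and 2 did not pass (median -0.43), or 1 was higher and 8 were lower with library size only. Pdgfra (-1.86), Itgb1 (-1.02), Vcam1 (-1.22) and Col1a1 (-0.35) were lower, although Col1a1 was higher with the length trend removed (0.39). The surface markers Thy1, from 126 to 308 CPM (1.29), Cd44 (0.41, but 0.04 with library size only) and Eng (0.26, but -0.11 with library size only) were higher. Cspg4, Ndufa4l2, Thy1, Cd44 and Eng were named after their values were seen. Of 11 blood cell markers, 2 were tested and both were higher, Cd14 (1.00) and Cd68 (0.75, not passing with library size only), with a summed level of 98.1 to 103.6 CPM in BMSCs-OE-NC and 198 to 206 CPM in BMSCs-OE-FNDC5, and Hba1 and Hbb had 0 counts along with Ptprc.

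The genes whose pattern over the 6 libraries was most like that of Des were found by the root mean square difference of centred log2 CPM among the 7441 genes that averaged 10 CPM or more. They were Rps15, a ribosomal protein (0.020), Gstp1, a glutathione transferase (0.038), S100a6, a calcium-binding protein (0.039), Use1, a vesicle fusion protein (0.042), and Kif22, a kinesin (0.047). None of the 5 is a contractile gene, and with 6 libraries in 2 groups the likeness rests mainly on the size of the change.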

How the data were processed

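RNA-seq was analysed in 6 libraries, 3 per group. The deposited counts are whole numbers of reads per gene, and the deposited FPKM values are, as computed from the table, those counts divided by gene length and by 1 constant per library. Per the labels, the authors' tools included HTSeq 0.6.0, DESeq2, HISAT2 2.1.0, Bowtie2 2.2.3, TopHat2 and CASAVA, with no role or order given. The labels name the mouse build mm10, whereas 32883 gene identifiers are those of rat, and the rat build and strand setting were not given in the sources used here. Gene positions are the table's own and were not mixed with those of GRCr8.

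Counts were tested in R 4.3.3 with edgeR 4.0.16 (filterByExpr, minimum count 10 and minimum total 15, TMM, glmQLFit and glmQLFTest, no covariate). Tests were two-sided, and Benjamini-Hochberg adjustment ran over all 12104 genes, with a threshold of 0.05. Ratios of FPKM were compared by an exact permutation test. Alternatives were DESeq2 1.42.0, limma 3.58.1 (voom, and trend on log2(FPKM + 1) and log2(FPKM + 0.1)), other scalings and filters, a lowess trend with gene length (span 0.3) as an offset, replicate number as a block, and each library left out. The procedure was also run on simulated counts in which few genes changed, as many up as down, with no trend with gene length. That setting is unlike these data, so the run does not check the scaling or the calls made here. CArG boxes were searched in RefSeq promoters, with Python 3.11.15, and plotted values with matplotlib 3.10.9.

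The members and lists were chosen with earlier results of these data known. Named genes were all members, their relatives in the ratio pairs, up to 4 tested genes per list (those of smallest p in the direction that prevailed among its calls), the 5 genes most like Des, and Fndc5. Genes named outside this rule are marked in the text. Prkg1, Mrtfb, Palld, Ttn, Myh2, Itgam and Cd79a were not analysed here.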

Additional observations from a re-analysis of the deposited data

How the results depend on the processing

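Of 136 values of the 8 tested members under alternatives, 133 kept their direction and their side of the threshold. The exceptions were Myl9, which no longer passed with the length trend removed, and Myh11, which passed as lower with library size only and as higher (0.64) with the length trend removed. With the fold threshold, 2 members were lower (Tpm1 and Cald1) with upper-quartile scaling and with library size only. Leaving out each library in turn kept 5 members higher and 2 lower in edgeR, where a group of 2 libraries remained, and left the 7 ratios in the same direction. Of 70 alternative values of the ratios, 69 kept their direction, and Tpm1 to Tpm4 turned from -0.42 to 0.28 with the length trend removed, an alternative added after the data were seen. Among those 70, CPM in place of FPKM and paired differences by replicate number could not change a group difference. Their agreement therefore says nothing about how firm the ratios are. Scaled by library size only, 2659 genes were higher in place of 4469, and with the fold threshold 483 were higher and 3338 lower in place of 1191 and 2124. With log2(FPKM + 1), which understates changes of low genes, 706 were lower with the fold threshold. List genes called higher were 37 with library size only in place of 58. Among single genes, Actg1 turned to -0.15 with library size only and to -0.17 with the length trend removed, Fhl2 to a log2 fold change of -0.019 and -0.064 (neither passing), and Col1a1 to 0.39 with the length trend removed. The 55 single genes counted here, members included, are among those chosen by the naming rule. Of their 934 values, 911 were the same, and the other lost calls were of Actb with both FPKM fits, Cd68, Mcam and Tnnc1. Genes named after their values were seen are not in these counts, and some of them moved too, such as Eng, which turned to -0.11 with library size only. Mcam no longer passed without BMSCs-OE-NC replicate 1 (adjusted p = 0.058 in edgeR) or BMSCs-OE-FNDC5 replicate 2 (0.056) or 3 (0.060), and Tnnc1 without BMSCs-OE-NC replicate 1 (0.058) or 2 (0.096) or BMSCs-OE-FNDC5 replicate 2 (0.10) or 3 (0.079).

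The main test did not treat replicate numbers as pairs, because the study's methods state no covariate. Same-numbered libraries did not deviate together (correlations 0.0211, -0.0251 and -0.00473). With replicate number as a block, 4399 genes were higher and 4628 lower, and the members called stayed at 5 higher and 2 lower. Depth limits Cnn1, Actg2, Myh11 and Myl9, each at under 100 counts per library, where neither the absence of a transcript nor the lack of a difference can be shown.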
